A study of Homo sapiens with 12 samples.

Results

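Epithelial-mesenchymal transition (EMT) is the switch in which epithelial cells give up tight contacts and take on a mobile, mesenchymal state, and a small set of transcription factor (TF) genes can drive it. The genes described here are 8 such factors, SNAI1, SNAI2, TWIST1, TWIST2, ZEB1, ZEB2, PRRX1 and TCF4. They were taken by symbol from a list of known EMT drivers, and the choice was made with earlier results of these data known. All 8 of them are among the 22784 gene symbols of the expression table, and 7 of the 8 were among the 14839 genes that passed the filter on low values, a normalized count of at least 10 in at least 3 libraries. PRRX1 did not pass it.

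SNAIL and ZEB proteins are zinc finger repressors that bind E-box DNA at epithelial genes, above all at the E-cadherin gene, and recruit chromatin corepressors there. TWIST proteins are basic helix-loop-helix factors that bind DNA as dimers with E proteins, and TCF4 is one of those E proteins (E2-2, a different gene from TCF7L2). PRRX1 is a homeobox factor of mesenchymal progenitors. In cells of mesenchymal origin, such as smooth muscle and the sarcomas that arise from it, several of these factors are expressed without any transition. Their levels are therefore not read here as a measure of a change from an epithelial state, which was not tested.

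RNA-seq was performed on SK-UT-1, an established human uterine leiomyosarcoma line, that is, a malignant tumor line of uterine smooth muscle. The cells received the DMSO vehicle, 5 µM JQ1 or 5 µM I-BET 762 for 48 h. Both compounds are triazolodiazepines that compete with acetylated histone tails for the bromodomains of BET proteins, with a thiophene fused to the diazepine ring in JQ1 and a benzene in I-BET 762. Of 12 labelled libraries, 10 were analysed, namely 3 DMSO, 4 JQ1 and 3 I-BET 762 libraries, and DMSO replicate 16 and I-BET 762 replicate 24 were not analysed here. All libraries come from 1 cell line, and nothing in the labels says that they were separate cultures, so the p-values measure only the spread between these samples, which may be technical.

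Reads on genes numbered 35564586 to 39658989 per library. The deposited scale is log2(normalized count + 1), and levels are given here with the log2 undone, as normalized counts, in which 1 read was worth 0.910 to 1.1. A count of 0 allowed up to 3 reads, that is, 2.73 to 3.30 normalized counts, which covers counting error only. A gene was called changed when its limma p-value, adjusted by the Benjamini-Hochberg method over all tested genes, was under 0.05 and its fold change was over 1.5, a log2 fold change beyond 0.585. The smooth muscle markers, 8 of 9 of which were in the table, summed to 20923 to 21518 normalized counts with DMSO, 10871 to 11519 with JQ1 and 12193 to 12764 with I-BET 762. The defining marker MYH11 was not among the 8. Immune markers summed to at most 15.7 normalized counts in any library, with PTPRC at 3 reads or fewer throughout. In bulk RNA, fewer cells that express a gene and less of its RNA per cell cannot be told apart.

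Sequence upstream of the annotated starts is shown for 3 members because the levels of TWIST2 and TCF4 fell with both inhibitors and that of ZEB1 was not called with either. The sequences are RefSeq promoter windows on GRCh38, printed 5′ to 3′ on the strand of the gene without annotated exon bases and without the 50 bases after the start. The TWIST2 stretch is chr2:238847835-238848031 on the plus strand. The TCF4 stretch is chr18:55589847-55590061 on the minus strand, from the window with the most CpG dinucleotides of its 10 windows. The ZEB1 stretch is chr10:31318167-31318416 on the plus strand, from a window with 17 CpG dinucleotides that holds CAGGTG. The ZEB1 window with the most CpG dinucleotides, 35, held no CAGGTG. The 3 stretches were thus not picked by 1 rule and allow no comparison of the motif between the genes. Capitals mark CAGGTG, the E-box form that SNAIL and ZEB proteins bind.
TWIST2: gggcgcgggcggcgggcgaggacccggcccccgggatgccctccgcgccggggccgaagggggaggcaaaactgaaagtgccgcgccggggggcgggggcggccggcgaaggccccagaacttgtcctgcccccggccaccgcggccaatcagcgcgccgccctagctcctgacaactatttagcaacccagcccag
TCF4: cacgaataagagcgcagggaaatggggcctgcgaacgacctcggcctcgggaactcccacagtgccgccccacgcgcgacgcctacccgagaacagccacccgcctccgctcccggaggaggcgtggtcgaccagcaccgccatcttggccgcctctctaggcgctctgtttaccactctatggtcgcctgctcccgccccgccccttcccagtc
ZEB1: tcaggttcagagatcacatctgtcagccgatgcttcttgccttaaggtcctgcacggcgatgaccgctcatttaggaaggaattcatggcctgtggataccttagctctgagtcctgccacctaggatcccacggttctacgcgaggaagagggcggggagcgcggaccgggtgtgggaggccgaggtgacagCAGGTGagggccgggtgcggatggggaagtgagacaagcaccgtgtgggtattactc

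The RefSeq windows used here matched 5 of the 8 members with 20 windows, 10 for TCF4, 7 for ZEB1 and 1 each for TWIST2, ZEB2 and PRRX1. CAGGTG, searched on both strands, was found in 2 of the 7 ZEB1 windows and in none of the other 13, beside 20.6% of 35116 promoter windows of all genes. The general E-box CANNTG, of which CAGGTG is 1 form, was found in 12 of the 20 windows, beside 68.7% of all windows. The TWIST2 window was 66.7% GC and those of TCF4 ranged from 35.7% to 65.3% GC, beside a median of 58.7% over all windows. These matches describe the letters of the windows and are not evidence of binding.

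The members lie on 7 chromosomes, in GRCh38 with Gencode V44 positions. TCF4 (ENSG00000196628.20) spans 55222185 to 55664787 on the minus strand of chromosome 18, and ZEB1 (ENSG00000148516.23) spans 31318495 to 31529814 on the plus strand of chromosome 10. TWIST1 (ENSG00000122691.13) lies at 19020991 to 19117636 on the minus strand of chromosome 7. TWIST2 (ENSG00000233608.5) at 238848032 to 238910534 on the plus strand and ZEB2 (ENSG00000169554.23) at 144364364 to 144521057 on the minus strand are both on chromosome 2. SNAI1 (ENSG00000124216.4) lies at 49982980 to 49988886 on chromosome 20, SNAI2 (ENSG00000019549.13) at 48917598 to 48921740 on chromosome 8 and PRRX1 (ENSG00000116132.12) at 170662728 to 170739421 on chromosome 1. Of the 75-base stretches in their transcripts, 0% to 3.49% also occur in another gene, with the highest share for ZEB2. The strand setting of the read counting was not stated, so reads of opposite-strand noncoding genes cannot be told apart from the members where exons overlap, over 7.06% of the exon bases of TWIST1, 4.97% of ZEB2, 4.58% of ZEB1 and 3.69% of SNAI2.

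In DMSO-treated cells, 4 of the factors were well expressed, TWIST2 was intermediate and 3 were low. Per kilobase of the canonical transcript, the mean normalized count was 2551 ± 128 (SD, n = 3) for TWIST1, 1233 ± 54.4 for SNAI2, 954 ± 15.7 for TCF4 and 895 ± 0.684 for ZEB1. TWIST2 followed at 243 ± 33.2. SNAI1 (9.85 ± 0.255), PRRX1 (2.59 ± 0.731) and ZEB2 (1.61 ± 0.141) were far lower on the same scale. Within each pair of related genes, one partner carried almost all of the RNA, namely SNAI2 over SNAI1, TWIST1 over TWIST2 and ZEB1 over ZEB2. No neighbours in this DMSO order overlapped in their library ranges, although PRRX1 (1.91 to 3.36) and ZEB2 (1.5 to 1.77) did overlap in both treated groups. With exon unions in place of canonical transcripts, ZEB1 stood above TCF4 in all 3 groups.

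On the canonical scale, both inhibitors changed the order of the well-expressed genes only for TCF4 and ZEB1. Per kilobase, TCF4 was at 366 ± 15.8 (SD, n = 4) under JQ1 and 516 ± 5.56 (SD, n = 3) under I-BET 762, so it ranked after ZEB1, which was at 865 ± 61.2 and 839 ± 10.4. TWIST1 stayed first and SNAI2 second in each group. By normalized count not divided by length, TCF4 lay above 94.2% of the tested genes with DMSO, 78.4% with JQ1 and 85.3% with I-BET 762. On that undivided scale, ZEB1 stayed above 88.1% to 89.8%.

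**Figure D1:**
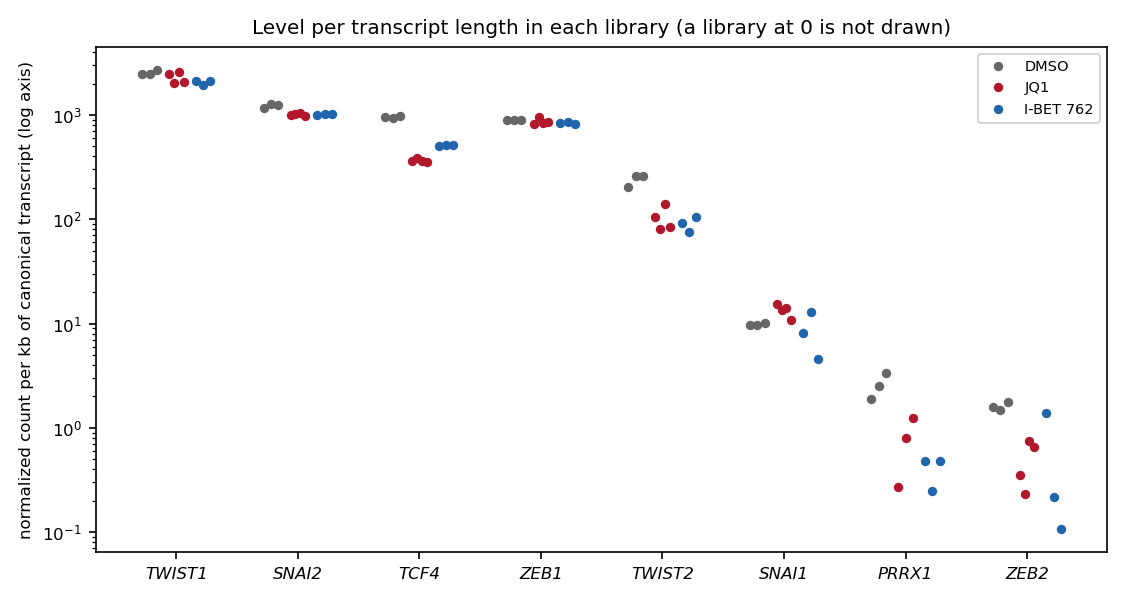
Normalized count per kilobase of the canonical transcript (log axis) for the 8 EMT factor genes, ordered by their DMSO level, with 1 point per library and colors for the 3 groups. TWIST1, SNAI2, TCF4 and ZEB1 lie far above SNAI1, PRRX1 and ZEB2 in every group, TCF4 and TWIST2 shift down with both inhibitors, and the JQ1 library in which PRRX1 is at 0 is not drawn.

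To determine which of the factors responded to BET inhibition, each inhibitor was compared with DMSO. With JQ1, 3 of the 7 tested members fell, TCF4, TWIST2 and ZEB2, and none rose. The same 3 fell with I-BET 762. ZEB2 passed the filter only through the DMSO libraries, where it was high, so its fall was favored by the filter, and of the other 6 tested members 2 fell, TCF4 and TWIST2. Over all tested genes, 22.8% were called lower with JQ1 (36.1% in either direction, 13.3% higher) and 17.9% with I-BET 762 (26.9% in either direction, 8.96% higher). The 7 members, ZEB2 included, had a median log2 fold change of -0.28 in the JQ1 comparison and of -0.31 in the I-BET 762 comparison, beside 0.01 and -0.00 over all tested genes. Both comparisons share the DMSO libraries, so they are not independent of each other.

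**Figure D2:**
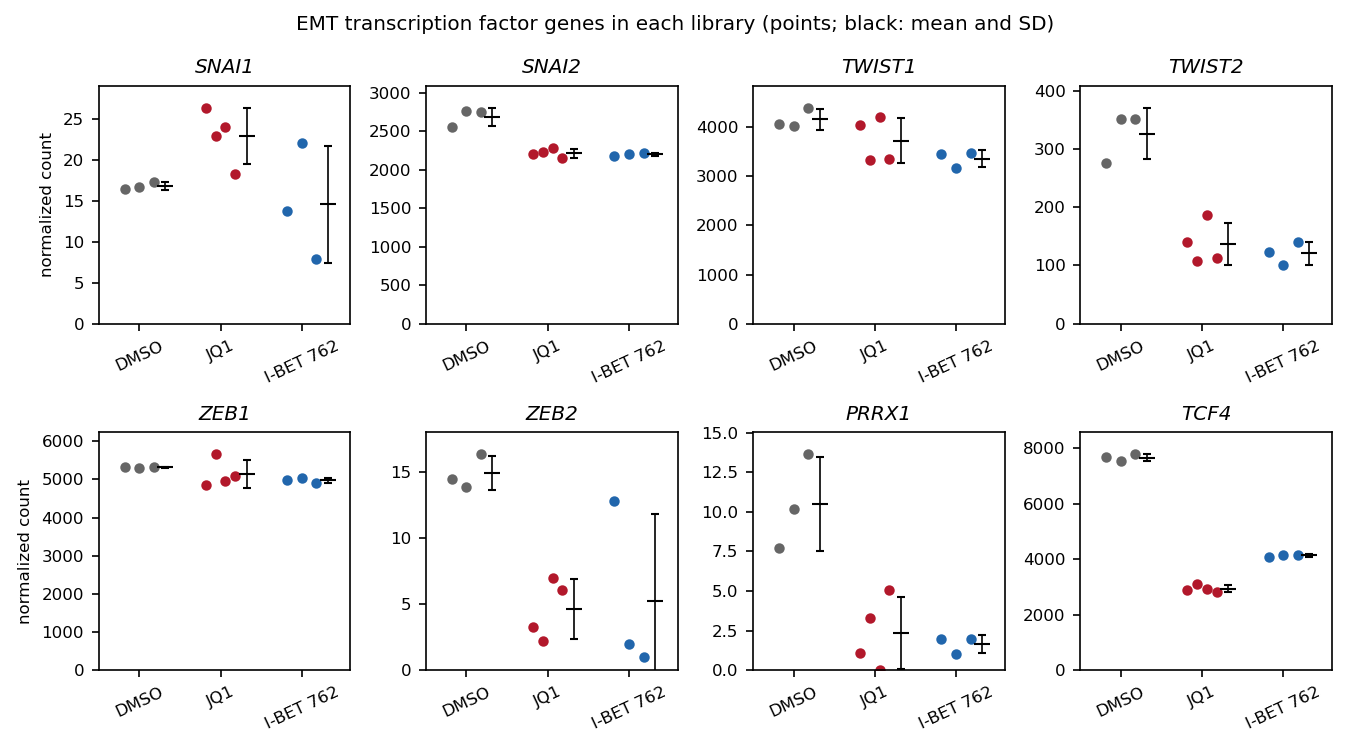
Normalized count of each of the 8 EMT factor genes in each library (points), with the mean and SD of each group in black and error bars cut at 0. The TCF4 and TWIST2 libraries of both treated groups sit wholly below the DMSO libraries, ZEB1 and TWIST1 libraries with JQ1 overlap those with DMSO, and SNAI1, ZEB2 and PRRX1 rest on at most 26.4 normalized counts.

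TCF4, the E protein partner, gave the clearest response. Its normalized count was 7689.9, 7537 and 7787 in the DMSO libraries, 2896, 3120.4, 2918 and 2823 in the JQ1 libraries, and 4094, 4172 and 4172 in the I-BET 762 libraries. The 3 groups did not overlap, with DMSO highest and JQ1 lowest. TCF4 fell by 1.38 on the log2 scale with JQ1 (SE 0.0448, limma adjusted p = 3.98e-13), to 38.3% of the DMSO mean. With I-BET 762 it fell by 0.89 (SE 0.0479, limma adjusted p = 3.97e-10), to 54.0% of the DMSO mean. Each library held at least 2636 TCF4 reads.

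TWIST2, the less expressed of the TWIST genes, was 275, 352 and 352 in the DMSO libraries. It was 141, 108, 187 and 113 with JQ1 and 123, 100.3 and 139.8 with I-BET 762. Every treated library lay below every DMSO library. TWIST2 fell by 1.27 on the log2 scale with JQ1 (SE 0.176, limma adjusted p = 7.64e-06), to 42.0% of the DMSO mean, and fell by 1.43 with I-BET 762 (SE 0.188, limma adjusted p = 7.49e-06), to 37.1%. It was called under each of the 22 settings tried in both comparisons.

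TWIST1, its close paralog and a factor of mesoderm and neural crest, was 4055, 4019.7 and 4397 with DMSO, 4036, 3325, 4202 and 3343 with JQ1 and 3443, 3165 and 3473 with I-BET 762. The JQ1 libraries overlapped the DMSO libraries and formed a higher and a lower pair, whereas all I-BET 762 libraries were lower than DMSO. Against DMSO, JQ1 gave a log2 fold change of -0.16 (95% interval -0.33 to -0.00, limma adjusted p = 0.0658). I-BET 762 gave one of -0.31 (95% interval -0.48 to -0.13, limma adjusted p = 0.00426), and both were under the fold threshold. With equal totals, the JQ1 value for TWIST1 was -0.35 (limma adjusted p = 0.00232), still under the fold threshold. TWIST2 thus made up 7.85% ± 0.999 of the TWIST1 count with DMSO, 3.64% ± 0.553 with JQ1 and 3.59% ± 0.429 with I-BET 762. The log2 ratio was lower in every treated library. By the exact two-sided permutation test, p was 0.0571 with JQ1 and 0.100 with I-BET 762, the smallest values that 4 against 3 and 3 against 3 libraries allow, and 0.133 after adjustment over the 8 ratio tests made.

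ZEB1, the main ZEB gene in these cells, was 5317, 5309 and 5315 in the DMSO libraries. It was 4853, 5664, 4948 and 5087 with JQ1 and 4993, 5032 and 4911 with I-BET 762. The JQ1 libraries lay on both sides of the DMSO values, and the I-BET 762 libraries lay below them by a small margin. The log2 fold change was -0.05 with JQ1 (95% interval -0.16 to 0.06, limma adjusted p = 0.383). With I-BET 762 it was -0.09 (95% interval -0.21 to 0.02, limma adjusted p = 0.149). Both intervals lie inside the fold threshold of 0.585. These values depended on the scaling. With equal totals, ZEB1 was at -0.24 with JQ1 (limma adjusted p = 9.42e-05) and -0.19 with I-BET 762 (limma adjusted p = 0.00138). It thus passed the adjusted p there, but stayed under the fold threshold and was not called.

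ZEB2 was low throughout, with 15, 15 and 18 reads in the DMSO libraries. Its normalized count was 14.5, 13.9 and 16.4 with DMSO, 3.30, 2.18, 7.0 and 6.09 with JQ1 and 12.8, 2.01 and 0.984 with I-BET 762. All treated libraries were below DMSO, but I-BET 762 replicate 21 lay close to the DMSO values. ZEB2 fell by 1.59 on the log2 scale with JQ1 (SE 0.586, limma adjusted p = 0.0232) and fell by 1.87 with I-BET 762 (SE 0.626, limma adjusted p = 0.0168). It was tested only because all 3 DMSO libraries reached a normalized count of 10, which none of the JQ1 libraries and 1 I-BET 762 library did, so these p-values are conditioned on the filter. The call was lost on leaving out any of several libraries, with log2 fold changes that stayed between -1.61 and -1.30. With JQ1, the limma adjusted p was 0.0527 without DMSO replicate 13, 0.0666 without DMSO replicate 15 and 0.0555 without JQ1 replicate 18, within a range of 0.00472 to 0.0666 over all settings. With I-BET 762 it was 0.0638 without I-BET 762 replicate 22 and 0.0918 without I-BET 762 replicate 23, within a range of 0.000771 to 0.0918, and without I-BET 762 replicate 21 the log2 fold change was -2.70. As a share of ZEB1, ZEB2 was 0.281% ± 0.0244 with DMSO, 0.0919% ± 0.0471 with JQ1 and 0.105% ± 0.131 with I-BET 762. The exact permutation p-values were 0.0571 and 0.100, again the smallest possible, and 0.133 after adjustment. These shares rest on the same ZEB2 counts, which passed the filter only through DMSO, and are no separate support. JQ1 replicates 17 and 18 and I-BET 762 replicates 22 and 23 held at most 3 ZEB2 reads, within the limit that a count of 0 allows.

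SNAI2 (SLUG), the main SNAIL gene here, was 2551, 2767 and 2744 with DMSO, 2199.8, 2227, 2287 and 2147 with JQ1 and 2181, 2209.6 and 2218 with I-BET 762. The treated libraries all lay below DMSO and were close to each other. JQ1 gave a log2 fold change of -0.28 (SE 0.0472, limma adjusted p = 6.69e-05) and I-BET 762 gave -0.29 (SE 0.0505, limma adjusted p = 0.000146). The difference was larger than the spread between libraries but smaller than 1.5-fold, so SNAI2 was not called. At the adjusted p alone, 4 of the 7 members passed with JQ1 and 5 with I-BET 762, all of them lower. ZEB2, whose fall was favored by the filter, is among the 4 and the 5. Of all tested genes, 71.7% passed it with JQ1, with 35.6% lower, and 61.1% with I-BET 762, with 31.3% lower. With equal totals, ZEB1 with both inhibitors and TWIST1 with JQ1 passed it as well.

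SNAI1 (SNAIL) was low, with 8 to 24 reads per library. Its normalized count was 16.5, 16.6 and 17.3 with DMSO, 26.4, 22.8, 24.0 and 18.3 with JQ1 and 13.8, 22.1 and 7.88 with I-BET 762. The JQ1 libraries were all above DMSO and the I-BET 762 libraries lay on both sides. Neither comparison passed the test, with log2 fold changes of 0.41 (95% interval -0.25 to 1.07, limma adjusted p = 0.244) and -0.30 (95% interval -1.0 to 0.40, limma adjusted p = 0.452). Among all tested genes, 34.1% had every JQ1 library above every DMSO library and 34.3% had every JQ1 library below, which was so of 1 and 4 of the 7 members. With I-BET 762, 6 of the 7 members had every library below DMSO, and none had every library above it, beside 36.2% and 34.8% of all tested genes. ZEB2, whose place below DMSO was favored by the filter, is among the 4 and the 6. SNAI1 was 0.626% ± 0.0224 of the SNAI2 count with DMSO, 1.03% ± 0.143 with JQ1 and 0.662% ± 0.323 with I-BET 762. The exact permutation p with JQ1 was 0.0571, the smallest possible, and 0.133 after adjustment. With I-BET 762 the exact permutation p was 0.900.

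PRRX1 had 8, 11 and 15 reads in the DMSO libraries and at most 5 in any treated library. Its normalized count was 7.75, 10.2 and 13.7 with DMSO, 1.1, 3.26, 0 and 5.07 with JQ1 and 1.97, 1.0 and 1.97 with I-BET 762. Every treated library lay below DMSO. All I-BET 762 libraries were within the limit that a count of 0 allows. The DMSO mean of PRRX1 was 3.5-fold above that limit, taking 3 reads per library as the floor. This value leaves out the counting error of the DMSO libraries. When all genes with a value above 0 were fitted, the limma adjusted p was 0.00460 with JQ1 and 0.00767 with I-BET 762, and both were calls. PRRX2, the related homeobox gene, was much higher at 860.4 ± 49.0 with DMSO. It fell to 399 ± 69.3 (SD, n = 4) after JQ1 and 416 ± 19.6 (SD, n = 3) after I-BET 762. The log2 fold changes of PRRX2 were -1.12 and -1.05 (limma adjusted p = 1.74e-07 and 1.53e-06). For the log2 ratio of PRRX1 to PRRX2, the exact permutation p was 0.457 with JQ1 and 0.100 with I-BET 762. After adjustment these were 0.522 and 0.133.

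**Figure D3:**
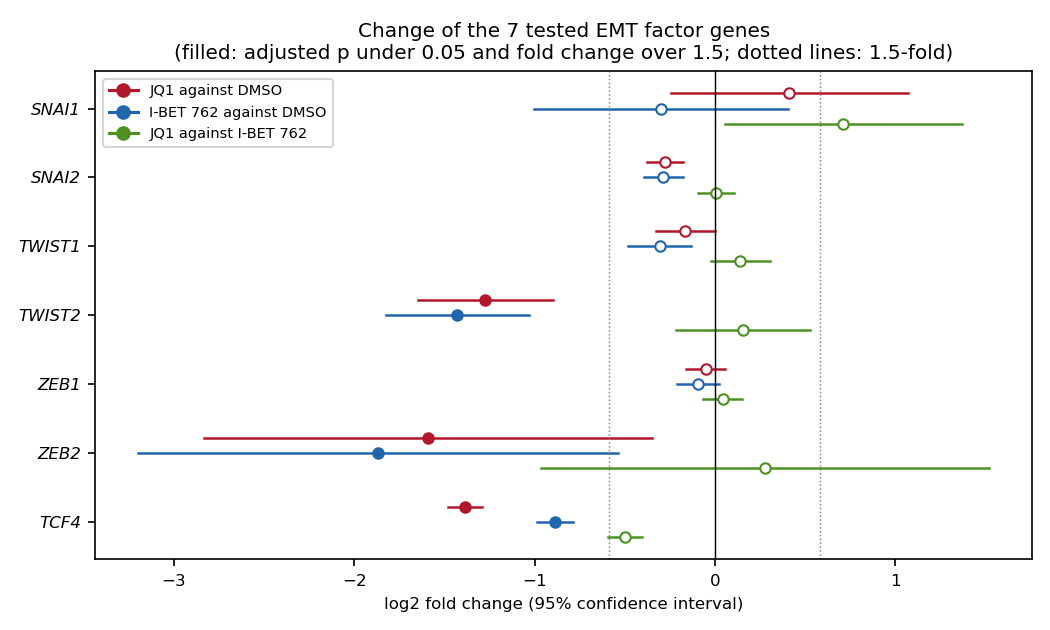
Log2 fold change with its 95% confidence interval (limma) for the 7 tested EMT factor genes in the 3 comparisons. Filled points are called, open points are not, and dotted lines mark 1.5-fold. TCF4, TWIST2 and ZEB2 are called against DMSO with both inhibitors, the intervals of ZEB1 hug 0, and none of the points for JQ1 against I-BET 762 is filled.

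The inhibitors were compared with each other at the same dose and time, to see where they gave different levels. What in the compounds lies behind a difference was not tested. None of the 7 tested members was called between JQ1 and I-BET 762, beside 5.31% of all tested genes. At the adjusted p alone, 1 member passed, TCF4, beside 27.3% of all genes. TCF4 was lower with JQ1 than with I-BET 762 in all libraries, at 2939 ± 127 (SD, n = 4) and 4146 ± 44.7 (SD, n = 3). The log2 difference was -0.50 (95% interval -0.59 to -0.40, limma adjusted p = 2.02e-06), a 1.41-fold difference. It passed 1.5-fold when the libraries were scaled to equal totals, at -0.59, and over all settings it ran from -0.59 to -0.48.

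For the other members the intervals of the difference between the inhibitors were of unequal width. They ran from -0.09 to 0.11 for SNAI2 and from -0.07 to 0.15 for ZEB1, both within 1.5-fold. The interval for TWIST1 ran from -0.02 to 0.31 and that for TWIST2 from -0.22 to 0.53. For ZEB2 it ran from -0.97 to 1.52 and for SNAI1 from 0.05 to 1.37, and both reach past 1.5-fold. SNAI1 had a log2 difference of 0.71 and a limma adjusted p of 0.102, and it was called at 1.05 without I-BET 762 replicate 22 (limma adjusted p = 0.0319, within a range of 0.0319 to 0.432 over all settings).

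E proteins are the partners of TWIST proteins and are also bound by the ID inhibitors, and the genes listed with them moved in both directions. Of 12 partners, inhibitors and close relatives in the table, 9 were tested. With JQ1, 4 rose and 3 fell, and with I-BET 762, 2 rose and 2 fell, or 1 and 3 with equal totals. The background for these and the gene lists that follow is the 36.1% (JQ1) and 26.9% (I-BET 762) of all tested genes that were called in either direction. The medians of their log2 fold changes were 0.90 for JQ1 and -0.38 for I-BET 762. All 4 that rose with JQ1 were the ID genes, whose helix-loop-helix proteins bind E proteins and keep them off DNA. ID2 went from 9438 ± 740.3 with DMSO (SD, n = 3) to 25593 ± 2604 with JQ1 (n = 4) and 17026 ± 938 with I-BET 762 (n = 3), log2 rises of 1.44 and 0.85 (limma adjusted p = 7.70e-11 and 1.63e-07).

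ID1, ID3 and ID4, together with the E protein genes TCF3 and TCF12, are named after their values were seen. The log2 fold change with JQ1 was 1.02 for ID1, 1.05 for ID3 and 1.25 for ID4, and each was called. With I-BET 762 it was 0.39, 0.67 and 0.39, and only ID3 was called, a call that was lost at 0.57 with equal totals. ID4 was called higher with JQ1 than with I-BET 762 (log2 difference 0.86, limma adjusted p = 6.90e-07). ID1 was as well (0.63, limma adjusted p = 0.00385), though not with equal totals, at 0.54. The other E protein genes were less affected than TCF4. TCF12 fell by 0.70 on the log2 scale with JQ1 (limma adjusted p = 5.18e-09) and was at -0.50 with I-BET 762, under the fold threshold, but called at -0.59 with equal totals. TCF3 was at -0.28 and -0.38, under the threshold in both. HAND2, a basic helix-loop-helix factor of the uterine stroma and heart, went from 41.5 ± 6.31 with DMSO to 12.9 ± 2.30 with JQ1 and 16.1 ± 10.8 with I-BET 762, and was called lower with both.

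Of 16 other TFs linked to EMT, 12 were tested, and 4 fell and 1 rose with JQ1 while 5 fell and none rose with I-BET 762. With equal totals, 6 fell and none rose with JQ1. The medians of the log2 fold changes were -0.24 for JQ1 and -0.32 for I-BET 762, and they were the same with KLF8 set at the floor of 3 reads per library. FOXM1, a factor of proliferating cells, went from 3728 ± 174 to 1215 ± 135 and 1881 ± 57.8, log2 fold changes of -1.62 and -0.99 (limma adjusted p = 1.50e-11 and 2.59e-08). GSC, a homeobox gene of the embryonic organizer, went from 46.9 ± 15.6 to 16.6 ± 6.46 with JQ1 and 19.2 ± 6.75 with I-BET 762. KLF8, a Krüppel-like repressor, was at 13.2 ± 4.55 with DMSO and at most 1 read in any treated library. That DMSO mean was 3.99-fold above the floor of 3 reads per library with JQ1 and 4.38-fold above it with I-BET 762. Both values leave out the counting error of the DMSO libraries. KLF8 passed the filter only through its DMSO libraries and is among the genes counted as falling.

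Of the 15 genes for corepressors that these factors recruit, all tested, 1 was called with each inhibitor, and 12 with JQ1 and 11 with I-BET 762 passed the adjusted p alone, most of them under the fold threshold. The called gene was RCOR1 in both cases, which encodes the CoREST scaffold of the LSD1 demethylase complex. It went from 3553 ± 91.7 to 6665 ± 100.4 with JQ1 and 6112 ± 121 with I-BET 762, log2 rises of 0.91 and 0.78 (limma adjusted p = 1.81e-11 and 6.45e-10). The median of the list with JQ1 was 0.17 and turned to -0.01 with equal totals. Of 14 genes for enzymes that mark or spare SNAIL, ZEB and TWIST proteins, 2 rose and 1 fell with JQ1 and 1 fell with I-BET 762, and with equal totals none rose with JQ1. The 1 called with both was USP27X, a deubiquitinase that stabilizes SNAIL, which went from 218 ± 24.7 to 139 ± 18.1 and 125 ± 11.4, log2 fold changes of -0.66 and -0.80.

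TGF-beta signals induce most of the factors in epithelial cells. Of 10 ligand, receptor and SMAD genes, 4 fell with JQ1 and 3 with I-BET 762, and none rose. TGFB3 went from 303 ± 19.2 to 68.9 ± 10.9 with JQ1 and 75.8 ± 18.7 with I-BET 762, log2 fold changes of -2.13 and -2.01 (limma adjusted p = 9.23e-09 and 8.74e-08). TGFB2 went from 1532 ± 46.5 to 420.3 ± 40.2 and 709 ± 23.9, and TGFBR2, the type II receptor gene, from 104 ± 4.14 to 63.9 ± 8.96 and 58.5 ± 13.8, both called with both inhibitors. The medians of the list were -0.16 and -0.03.

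The epithelial genes that the factors are known to repress did not rise as a list. Of 16 tested, 10 fell and 2 rose with each inhibitor, with medians of -0.91 with JQ1 and -0.78 with I-BET 762. P-cadherin (CDH3) went from 175 ± 12.3 to 18.2 ± 3.48 and 23.1 ± 5.87, log2 fold changes of -3.21 and -2.89 (limma adjusted p = 1.50e-09 and 2.62e-08). The desmosomal gene PKP3 went from 122 ± 25.8 to 8.95 ± 4.97 and 11.5 ± 1.08, and the mucin gene MUC1 from 40.2 ± 4.55 to 4.68 ± 1.14 and 8.24 ± 1.45. MUC1 and CLDN4, both counted here, would not have passed the filter on the treated libraries alone. E-cadherin (CDH1) was not tested, with normalized counts of 3.87 to 13.7 with DMSO, 2.18 to 7.0 with JQ1 and 0.984 to 2.01 with I-BET 762, the last within the limit that a count of 0 allows.

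Among 4 tested genes of 12 that favor the epithelial state, 3 fell and 1 rose with JQ1, and 1 fell and 1 rose with I-BET 762. ELF3 and ESRP2, which fell with JQ1, would not have passed the filter on the treated libraries alone. EHF, an epithelial ETS factor, went from 786 ± 16.3 to 173 ± 15.9 and 233 ± 1.97. GRHL1, a grainyhead factor of epidermis, went the other way, from 48.8 ± 17.1 to 157 ± 11.6 and 156 ± 6.52, log2 rises of 1.73 in both comparisons (limma adjusted p = 7.97e-07 and 3.13e-06).

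Mesenchymal genes fell more often than they rose. Of 21 tested, 15 fell and 2 rose with JQ1, and 13 fell and 1 rose with I-BET 762, with medians of -1.13 and -0.98. TAGLN, which encodes the actin-binding protein transgelin and is also a smooth muscle marker, went from 1599 ± 46.0 to 126 ± 14.4 and 157 ± 11.7. COL3A1, a fibrillar collagen gene, went from 28783 ± 1204 to 2645 ± 264 and 5673 ± 392, and TNC, the tenascin-C gene, from 127 ± 9.19 to 11.7 ± 3.55 and 17.2 ± 3.81. Other usual readouts of EMT did not follow. FN1, the fibronectin gene, rose from 52.9 ± 13.0 to 104 ± 30.4 and 91.4 ± 8.45, log2 rises of 0.95 and 0.80 (limma adjusted p = 0.000827 and 0.00616). N-cadherin (CDH2) was at 213 ± 24.9, 237 ± 16.9 and 251 ± 23.2, with log2 fold changes of 0.16 and 0.24 (limma adjusted p = 0.190 and 0.0772), the first of which turned to -0.03 with equal totals. Vimentin (VIM) was at 114903 ± 4283, 156300.1 ± 4800.2 and 125006 ± 1632, with log2 fold changes of 0.44 (limma adjusted p = 4.80e-06) and 0.12 (limma adjusted p = 0.104), under the fold threshold. All treated libraries were above DMSO for VIM.

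The smooth muscle markers moved with these groups, since 7 of 8 fell with JQ1 and 6 of 8 with I-BET 762. Epithelial markers summed to 1218 to 1279.5 normalized counts with DMSO, 512 to 603 with JQ1 and 499 to 544 with I-BET 762. They share EPCAM, KRT8, KRT18, KRT19 and CDH1 with the epithelial genes above, and ESRP1 with the genes that favor the epithelial state. ESRP1 was at 3 reads or fewer in all treated libraries. Fibroblast markers, which share COL1A1, COL1A2 and PDGFRA with the mesenchymal list, summed to 16933 to 20858, 9348 to 12614 and 12535 to 13876, with LUM at 3 reads or fewer in every library. The part of these markers in the changes of the EMT factors was not tested.

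**Figure D4:**
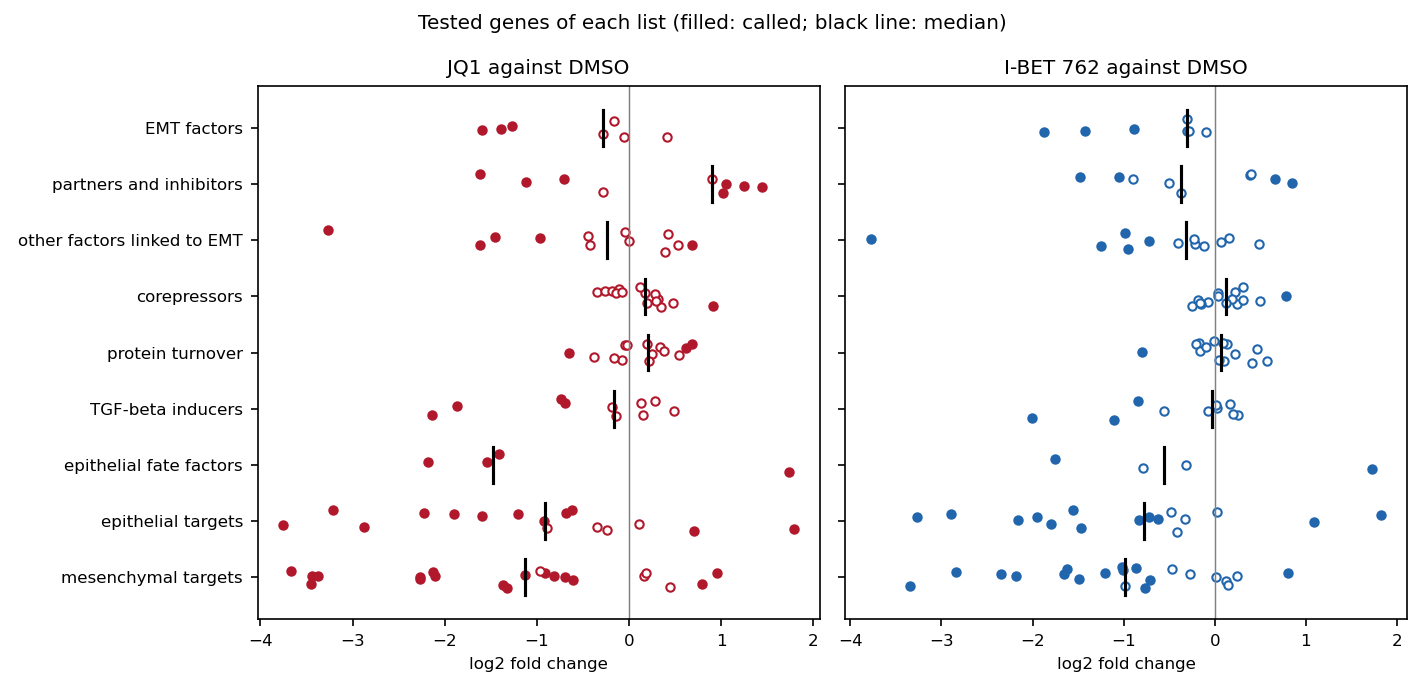
Log2 fold change of each tested gene against DMSO with JQ1 (left) and I-BET 762 (right), by gene list, with called genes filled and the median of each list as a black line. The epithelial and the mesenchymal targets both lie mainly below 0, with medians of -0.91 and -1.13 with JQ1, and the corepressors cluster near 0.

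Of 9 listed antisense gene symbols, 2 were in the table used here. ZEB1-AS1, which runs opposite to ZEB1 from the same region, was at 276 ± 20.7 with DMSO, 208 ± 7.12 with JQ1 and 267 ± 27.0 with I-BET 762. Its log2 fold changes were -0.40 (limma adjusted p = 0.00137) and -0.05 (limma adjusted p = 0.704), not called, but called with JQ1 at -0.59 with equal totals. SNAI3-AS1, beside the SNAIL relative SNAI3, was at 275 ± 33.5, 274 ± 44.2 and 297 ± 19.2.

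Genes within 250 kb were looked at for the members that fell. TCF4 had 0 tested neighbours, and TWIST2 had 1, HDAC4, which was not called, with log2 fold changes of 0.25 and 0.14. ZEB2 had 1, GTDC1, a glycosyltransferase-like gene 31796 bases away, which rose with both inhibitors while ZEB2 fell. GTDC1 went from 180.3 ± 7.05 to 429.7 ± 55.9 with JQ1 and 437 ± 14.2 with I-BET 762, log2 rises of 1.24 and 1.27 (limma adjusted p = 1.06e-08 and 3.90e-08).

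The genes most like each member were sought by the root mean square difference of the log2 values over the 10 libraries, after subtraction of each gene's own mean. DYNC2H1, a ciliary dynein motor gene, and MSRB3, a methionine sulfoxide reductase gene, were nearest to TCF4, each at 0.042, beside a median of 0.63 over all tested genes, and 27 genes lay within 2 times the smaller distance. REST, the repressor of neuronal genes, was nearest to SNAI2 at 0.030, followed by PPP3CA at 0.035. For ZEB1 the nearest were ATF6 at 0.020 and RABEPK at 0.032, and for TWIST1 L3HYPDH at 0.044 and CDC42EP4 at 0.064. Distances were larger for TWIST2, at 0.17 for MATN3 and 0.18 for CXCL3. For the low genes they were larger still, at 0.21 for FCRLB and 0.28 for KIF9 beside SNAI1, and at 0.50 for DNAJC5B and 0.53 for SAMD13 beside ZEB2. Within 2 times the smallest distance there were 463 genes for TWIST2, 1835 for SNAI1 and 4016 for ZEB2, so the genes named for these 3 are not particular to them, against 15 to 83 genes for ZEB1, TCF4, TWIST1 and SNAI2. The medians over all tested genes ran from 0.27 for ZEB1 to 1.11 for ZEB2.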

How the data were processed

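The treatment label of each library set its group. The members and the gene lists were chosen with earlier results of these data known. The authors trimmed reads with Trimmomatic (quality checks with FastQC 0.73), aligned them to hg38 with HISAT2 2.2.1, counted them on Gencode V41 genes with featureCounts 2.0.3, left out outlier samples and used DESeq2 for normalization. The deposited unit is log2(normalized count + 1). With the log2 undone, 99.74% to 99.77% of the values in each library were whole multiples of 1 step (within 0.02 reads), which gave the reads behind each value, and 65 symbols were not whole in some library.

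The log2 values of the 14839 tested genes went into a limma fit (limma 3.58.1, R 4.3.3) with 10 libraries and 3 groups in one model, empirical Bayes moderation with an intensity trend and Benjamini-Hochberg adjustment. A fold change is on the log2(normalized count + 1) scale, which understates the change of low genes. The code was tested on simulated data. Ratios of related genes were compared by exact two-sided permutation tests in scipy 1.17.1. Tables used Python 3.11.15, numpy 2.4.6 and pandas 2.3.3, and plots matplotlib 3.10.9. Positions came from Gencode V44.

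Named were the members, and from each list at most 3 genes, those with the largest of the smaller absolute log2 fold changes among genes called in the same direction with both inhibitors, plus CDH1, CDH2, VIM, FN1, the antisense genes, called neighbours within 250 kb of a called member and the 2 genes most alike. Exceptions are stated. Alternatives were pseudocounts of 0.5 and 5, other filters, equal totals or upper quartiles, no trend, only the 2 groups compared, other fold thresholds, limma-voom on the recovered reads, and each library left out.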

Additional observations from a re-analysis of the deposited data

How the results depend on the processing

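The number of members called was 3 with JQ1, 3 with I-BET 762 and 0 between the inhibitors, with ZEB2, whose fall was favored by the filter, in both counts of 3. Without a fold threshold it was 5 with I-BET 762 and 1 between the inhibitors, and with equal totals it was 1 between the inhibitors. With single libraries left out the counts ran from 2 to 3, 2 to 3 and 0 to 1, where the 1 was SNAI1 without I-BET 762 replicate 22. At a fold change over 2, the TCF4 call with I-BET 762 was lost. Of 435 alternative values of the members' log2 fold changes, 415 kept their direction and side of the threshold, and 8 turned direction, none of them a called value. Settings such as another fold threshold, no trend or a left-out library of the third group return the same log2 fold change. Those values could not turn direction, so the 415 is in part fixed in advance. SNAI1 with I-BET 762 became 0.0527 without I-BET 762 replicate 23 (range without single libraries -0.6359 to 0.0527). Between the inhibitors, SNAI2 became -0.0808 with equal totals, -0.0201 with equal upper quartiles and -0.0075 without JQ1 replicate 19 (range -0.0075 to 0.0228). TWIST2 became -0.0051 without JQ1 replicate 19 (to 0.2653), ZEB1 became -0.0457 with equal totals and -0.0047 without JQ1 replicate 18 (to 0.0696), and ZEB2 became -0.2876 without I-BET 762 replicate 23 (to 1.1109). The cause was not tested. Over all genes, 5358, 3991 and 788 were called in the 3 comparisons, 10633, 9073 and 4047 without a fold threshold, 2958, 2108 and 206 at a fold change over 2, and 3359, 2338 and 418 when the mean had to reach 100 normalized counts, a filter that removes SNAI1 and ZEB2. Equal totals shifted the median log2 fold change of all genes by -0.18 with JQ1, -0.10 with I-BET 762 and -0.09 between the inhibitors, and raised the share of calls that were lower from 63.1% to 77.5% with JQ1 and from 67.5% to 82.0% between the inhibitors. No paired analysis was possible because the replicate numbers 13 to 24 are all different and no groups share one. Depth limits SNAI1, ZEB2 and PRRX1, which rest on at most 24 reads in any library.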

Other observations

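HDAC9, a class IIa histone deacetylase gene whose annotated body lies 18575 bases from that of TWIST1 on chromosome 7, is named after its values were seen. Its normalized count was 8029 ± 108 in DMSO (SD, n = 3), 1933 ± 101 under JQ1 (n = 4) and 3374 ± 42.5 under I-BET 762 (n = 3). HDAC9 fell by 2.06 on the log2 scale with JQ1 and by 1.25 with I-BET 762 (limma adjusted p = 1.37e-14 and 1.69e-11), and was lower with JQ1 than with I-BET 762 by a called difference of -0.80 (limma adjusted p = 5.74e-08). TWIST1, beside it, was not called in any of these comparisons, and no difference between the changes of these 2 genes was tested.

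SNAI1 had 9 tested neighbours within 250 kb, 2 of them called with JQ1 and 1 called with I-BET 762, all named after their values were seen. SLC9A8, a sodium-proton exchanger gene, had normalized counts of 356 ± 29.1 in DMSO, 209 ± 16.7 under JQ1 and 271 ± 41.5 under I-BET 762, with a log2 fold change of -0.76 with JQ1. RNF114, a ubiquitin ligase gene, was at 2721 ± 35.9, 4187 ± 126 and 3789.5 ± 135, with a log2 fold change of 0.62 with JQ1 that was not called with equal totals (0.44) or equal upper quartiles (0.56). CEBPB, a basic leucine zipper factor gene, was at 308 ± 32.8, 361 ± 117 and 199 ± 7.60, with a log2 fold change of -0.62 with I-BET 762 and a called difference of 0.80 between the inhibitors.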
